A study of Mus musculus with 22 samples.

Results

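Expression of 10 acute phase genes was followed across the 6 liver libraries of an RNA sequencing series of mouse tissue. The genes were Saa1, Saa2, Saa3, Orm1, Orm2, Hp, Hpx, Apcs, Itih4 and Wfdc21, taken as a named list from the 24786 genes of the liver table. The series holds 22 samples of whole liver, whole thymus and CD8+ T cells sorted from liver, and its title names an autoimmune hepatitis and primary biliary cirrhosis overlap model, the dnTGFβRII Aire-/- mouse. The labels give C57BL/6 mice of 2 to 4 weeks for every sample. Each liver group had 2 libraries. Aire+/+ livers carried no TG and were untreated. TG Aire-/- livers carried TG, lacked Aire and were untreated. CD8-depleted TG Aire-/- livers had the same genotype and were labelled as depleted of CD8+ T cells, with the way and length of the depletion not stated. TG is read here as the dnTGFβRII transgene of the title, a dominant-negative type II TGF-β receptor that is known to act in T cells, and Aire is the regulator that lets the thymus display tissue antigens. No untreated liver with TG alone or Aire loss alone is among the 6 libraries, so TG and Aire loss cannot be told apart, and all 4 TG livers share both.

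The acute phase response is the change in plasma protein synthesis by hepatocytes after infection or tissue injury. Interleukin-6 acting through gp130 and STAT3, together with interleukin-1 acting through NF-kB and C/EBP factors, is the classical drive of the positive acute phase genes. Saa1 and Saa2 encode serum amyloid A proteins that travel on high-density lipoprotein, and Saa3 encodes a serum amyloid A made largely by macrophages, adipocytes and other cells outside the hepatocyte. Orm1 and Orm2 encode orosomucoids (alpha-1-acid glycoproteins), Hp haptoglobin, which binds free haemoglobin, and Hpx hemopexin, which binds free haem. Apcs encodes serum amyloid P component, a pentraxin, Itih4 a heavy chain of the inter-alpha-trypsin inhibitor family, and Wfdc21 a small secreted protein with a whey acidic protein domain.

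The genes lie in 2 small clusters and at single sites of GRCm38, the assembly that mm10 names. Saa3 (chr7:46711998-46715700, minus strand), Saa1 (chr7:46740497-46742980, minus strand) and Saa2 (chr7:46751790-46754313, plus strand) are neighbours. Orm1 (chr4:63344560-63348163) and Orm2 (chr4:63362449-63365878), both on the plus strand, are neighbours as well. Hp is at chr8:109575128-109579172, Hpx at chr7:105591613-105600137, Apcs at chr1:172893961-172895041, all on the minus strand, and Itih4 at chr14:30886476-30902353 and Wfdc21 at chr11:83746940-83752642 on the plus strand. The longest coding transcripts of Saa1 and Saa2 shared 87.3% of aligned bases and those of Orm1 and Orm2 91.0%, so reads can be split between the copies and each copy is uncertain as a single gene.

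Promoter sequences from RefSeq (GRCm38.p6) matched 7 of the 10 genes by symbol, and Orm1, Hp and Wfdc21 are named only. The 250 bases before the start were searched on both strands for 4 motifs that are known from this response. TTGCNNAA (C/EBP) was found in 5 of the 7 genes, Saa1, Saa2, Saa3, Orm2 and Hpx, and in 9.56% of a background of 32851 promoters. That background did not cover every chromosome. TTCNNNGAA (STAT) was found in Apcs and Itih4 and in 7.02% of the background promoters. CTGGGAA (IL-6 response element) was found in Apcs and in 9.1% of them. The NF-kB motif was found in none of the 7 and in 1.41% of them. A match is a description of letters, not of a bound site. The sequences of Saa1, Saa2 and Orm2 are shown because the depleted replicates lay furthest apart in these 3 of the 10 genes, and that of Saa3 because its levels ran the other way. Each runs from base -250 to base -51 before the start, 5′ to 3′ on the gene's strand, with the C/EBP match in capitals (in Saa3 the match is on the opposite strand). The positions are chr7:46743031-46743230 for Saa1, chr7:46751583-46751782 for Saa2, chr4:63362199-63362398 for Orm2 and chr7:46715727-46715926 for Saa3.
Saa1: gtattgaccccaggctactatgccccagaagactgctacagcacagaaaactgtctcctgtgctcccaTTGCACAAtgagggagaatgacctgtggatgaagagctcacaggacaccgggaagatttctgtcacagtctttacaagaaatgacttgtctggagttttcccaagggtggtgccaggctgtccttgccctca
Saa2: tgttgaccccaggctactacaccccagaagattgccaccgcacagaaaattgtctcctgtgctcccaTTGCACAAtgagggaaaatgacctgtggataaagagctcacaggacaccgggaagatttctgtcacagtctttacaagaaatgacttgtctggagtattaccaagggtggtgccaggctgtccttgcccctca
Orm2: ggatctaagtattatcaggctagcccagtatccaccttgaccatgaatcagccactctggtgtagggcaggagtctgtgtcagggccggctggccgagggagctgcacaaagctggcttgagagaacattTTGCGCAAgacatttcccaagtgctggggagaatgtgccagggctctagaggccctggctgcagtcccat
Saa3: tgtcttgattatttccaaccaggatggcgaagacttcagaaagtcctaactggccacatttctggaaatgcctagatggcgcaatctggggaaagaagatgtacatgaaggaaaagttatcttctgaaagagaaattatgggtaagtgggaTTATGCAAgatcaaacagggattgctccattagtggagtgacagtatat
Over the 250 bases the promoters of Saa1 and Saa2 were 94.8% identical in alignment and carried the same TTGCACAA, at -182 to -175 in Saa1 and at -183 to -176 in Saa2. The promoters of Saa1 and Saa3 shared 48.2%, and the match in Saa3, at -99 to -92, was closer to the start. Orm2 held TTGCGCAA at -120 to -113.

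Values are RPKM, the reads on a gene scaled by its length and by the mapped reads of the library. Depth was inferred at 20100000 to 22900000 reads per liver library. CD8-depleted replicate 2 stood apart for these genes: the 10 together made up 5.92% of its summed RPKM, against 1.329% to 2.365% in the other 5 libraries. Cd8a, the coreceptor of the depleted cells, was 8.76 and 3.75 RPKM in the TG Aire-/- livers and 0 and 0.187 RPKM after depletion, and the Aire+/+ livers held 0.161 and 0.220 RPKM. Xist and Y-linked genes marked 1 male and 1 female liver in each of the groups Aire+/+ and TG Aire-/-, and 2 males in the depleted group. The replicates of Aire+/+ and of TG Aire-/- therefore came from different animals, and for the depleted group the labels do not say. The p-values measure the spread between these libraries, which may in part be technical. Alb was 18964 to 49396 RPKM and Hnf4a 44.6 to 110 RPKM in all 6 libraries, so both of these hepatocyte genes were present throughout. Cyp2e1, another hepatocyte gene, read 3536 and 3660 RPKM in Aire+/+ livers and 30.6 and 24.6 RPKM in TG Aire-/- livers. After depletion Cyp2e1 read 3411 and 1640 RPKM.

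In TG Aire-/- livers, 8 of the 10 genes had lower estimates than in Aire+/+ livers, while Saa3 was several times higher. Of the 10, Wfdc21, Itih4 and Apcs fell and Saa3 rose at an adjusted p under 0.05 (limma on log2(RPKM + 1), Benjamini-Hochberg adjustment over 12231 genes). That is 4 of 10 genes called, where 37.3% of all genes tested were called, 31.8% higher and 5.5% lower. This split of all genes, 3892 higher and 673 lower, depended on the scaling: with each library centred on its median it was 1508 and 1801, and of the 10 genes 3 fell and 1 rose as before. The median log2 difference of the 10 was -1.22, and that of all genes tested was 0.53. Readings did not overlap between the 2 groups in 7 genes that were lower and 1 that was higher, where 15.4% and 63% of all genes did not overlap in those directions. In bulk tissue, fewer hepatocytes and less RNA of a gene per hepatocyte cannot be told apart.

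After CD8+ T cell depletion the order was reversed for most of the genes. Saa1, Saa2, Orm1, Itih4 and Wfdc21 rose against TG Aire-/- livers and Saa3 fell, so that 6 of 10 were called (limma, adjusted p under 0.05). Of all genes tested 38% were called, 4.49% higher and 33.5% lower. With each library centred on its median the 549 higher and 4097 lower genes became 1350 and 1287, and of the 10 genes 6 rose and 1 fell. The median log2 difference of the 10 was 2.56 and that of all genes was -0.58. Readings did not overlap in 7 genes that were higher and 1 that was lower after depletion, where 10.1% and 60.6% of all genes did not overlap in those directions. Against Aire+/+ livers only Wfdc21, 1 of 10, was called, and it rose (limma), where 0.548% of all genes were called in either direction, 0.221% higher and 0.327% lower. Readings did not overlap in 4 genes that were higher and 2 that were lower, against 20.2% and 28.8% of all genes. The median log2 difference of the 10 was then 1.32 and that of all genes -0.04. The first comparison and the last share the Aire+/+ libraries, and the first and the second share the TG Aire-/- libraries. The second and the last share the CD8-depleted libraries. The 3 comparisons are therefore not independent of each other.

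**Figure D1:**
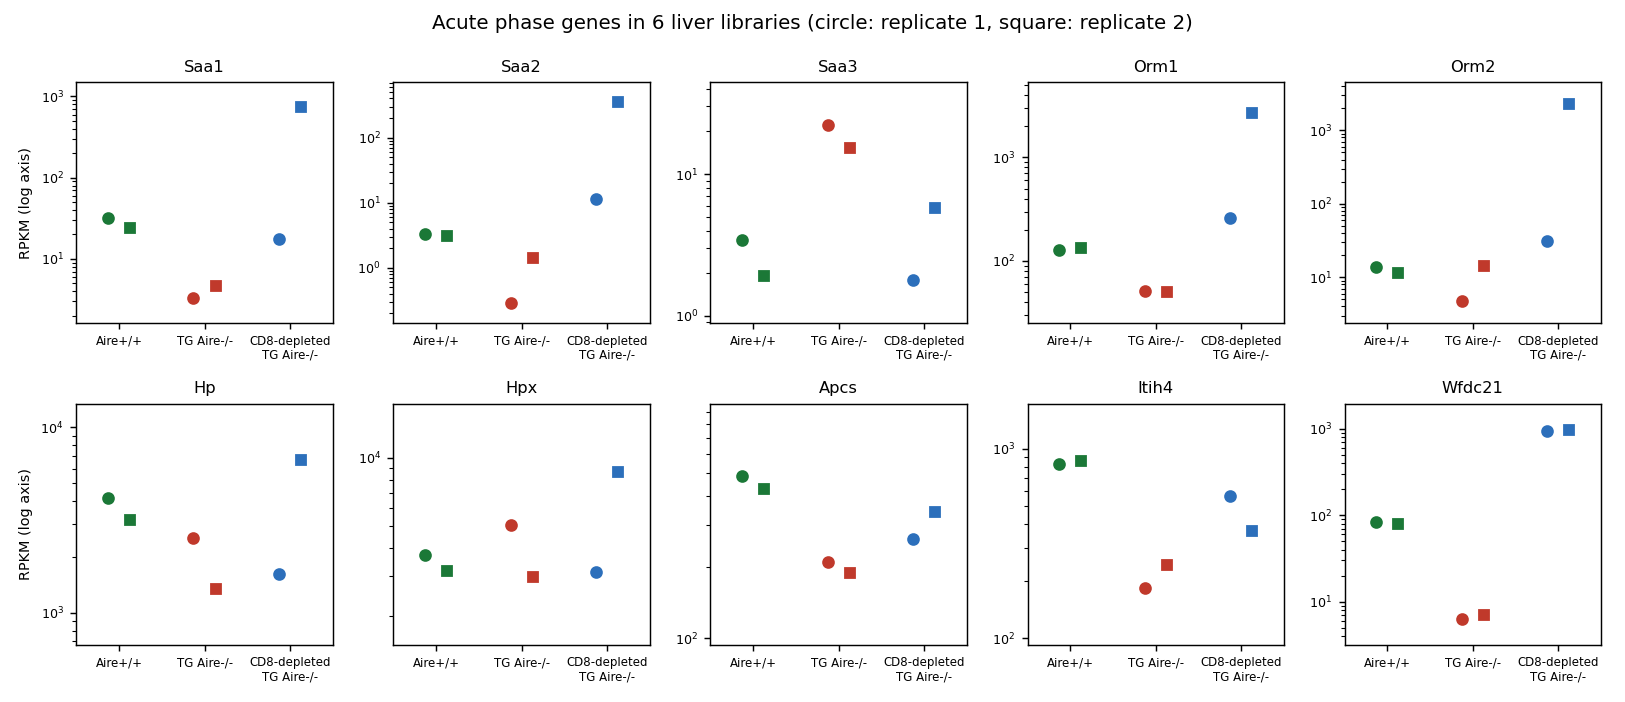
RPKM (log axis, scaled for each gene) of the 10 acute phase genes in the 6 liver libraries, grouped as Aire+/+ (green), TG Aire-/- (red) and CD8-depleted TG Aire-/- (blue), with a circle for replicate 1 and a square for replicate 2. Both CD8-depleted points of Wfdc21 lie together at 949 and 971 RPKM, while those of Saa1, Saa2, Orm1 and Orm2 lie far apart.

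Saa1 read 31.7 and 23.8 RPKM in Aire+/+ livers, 3.26 and 4.65 RPKM in TG Aire-/- livers, and 17.6 and 746.7 RPKM after depletion. Both TG Aire-/- livers were below both Aire+/+ livers, and the depleted livers straddled the Aire+/+ readings. The log2 difference of TG Aire-/- from Aire+/+ was -2.54 ± 1.41 (SE, n = 2 and 2), with a limma adjusted p of 0.184. From TG Aire-/- to depleted livers it was 4.58 ± 1.41 (SE, n = 2 and 2), with a limma adjusted p of 0.0378. The call held without depleted replicate 2, at a log2 difference of 1.92, but not without either TG Aire-/- library (limma adjusted p of 0.146 and 0.158), without low-value filtering (0.110) or with sex as a covariate (0.0796). It held in 11 of 15 alternatives, over a range of 0.00124 to 0.158. Against Aire+/+ livers the depleted livers differed by 2.05 on the log2 scale with a limma adjusted p of 0.674, and the sign turned to -0.62 without depleted replicate 2.

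Saa2, the close copy of Saa1, was at a lower level: 3.30 and 3.08 RPKM in Aire+/+ livers, 0.286 and 1.41 RPKM in TG Aire-/- livers, and 11.49 and 354.2 RPKM after depletion. All 3 groups were separate, with TG Aire-/- lowest and the depleted livers highest. The reading of 0.286 RPKM in TG Aire-/- replicate 1 rests on an inferred 3.35 to 16 reads, depending on the transcript. The difference of TG Aire-/- from Aire+/+ was -1.25 ± 1.29 on the log2 scale (SE, n = 2 and 2), with a limma adjusted p of 0.462. The rise from TG Aire-/- to depleted livers was 5.24 ± 1.29 on the log2 scale (SE, n = 2 and 2), with a limma adjusted p of 0.0186. Without depleted replicate 2 the rise was 2.83 and still called, and without TG Aire-/- replicate 1 or replicate 2 it was not (limma adjusted p of 0.0957 and 0.0940), nor without low-value filtering (0.0686). It held in 12 of 15 alternatives, over a range of 0.00158 to 0.0957. The ratio of Saa1 to Saa2 was 7.75 to 9.62 in Aire+/+ livers and 1.53 and 2.11 in the depleted livers, so the copies did not keep 1 ratio. In the TG Aire-/- livers the ratio was 11.4 and 3.29.

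The shared fit takes its spread from all 3 groups, and the depleted replicates were far apart in these genes. Where only the groups compared entered the fit, the differences of TG Aire-/- from Aire+/+ were called as falls for Saa1 (limma adjusted p of 0.00255), Saa2 (0.0279) and Orm1 (0.00704). The range of the adjusted p over all 15 alternatives was 0.00255 to 0.390 for Saa1, 0.0279 to 0.747 for Saa2 and 0.00704 to 0.495 for Orm1. The number of the 10 genes called in that comparison was then 7, and it was also 7 without either depleted library, as those settings take the gap out of the fit.

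Saa3 ran against its neighbours. It read 3.41 and 1.91 RPKM in Aire+/+ livers, 22.1 and 15.3 RPKM in TG Aire-/- livers, and 1.79 and 5.75 RPKM after depletion. Both TG Aire-/- livers were above all 4 other libraries. Saa3 rose by 2.44 ± 0.45 on the log2 scale in TG Aire-/- against Aire+/+ livers (SE, n = 2 and 2, limma adjusted p of 0.00710). It fell by 2.16 ± 0.45 on the log2 scale from TG Aire-/- to depleted livers (SE, n = 2 and 2, limma adjusted p of 0.0109). The first of these calls held in all 15 alternatives, and the second was lost without either TG Aire-/- library (limma adjusted p of 0.0547 and 0.0558). Depleted and Aire+/+ livers overlapped, with a log2 difference of 0.28 and a limma adjusted p of 0.887.

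Orm1 read 126.5 and 133.3 RPKM in Aire+/+ livers, 51.1 and 50.4 RPKM in TG Aire-/- livers, and 262.6 and 2656 RPKM after depletion. Readings of the replicates were close in the first 2 groups and about 10.1-fold apart in the last, and no groups overlapped. The difference of TG Aire-/- from Aire+/+ was -1.34 ± 0.91 on the log2 scale (SE, n = 2 and 2, limma adjusted p of 0.267). The rise from TG Aire-/- to depleted livers was 4.02 ± 0.91 on the log2 scale (SE, n = 2 and 2, limma adjusted p of 0.0140). Without depleted replicate 2 it was 2.35 and still called, and without TG Aire-/- replicate 1 or replicate 2 the limma adjusted p was 0.0639 and 0.0942. Without low-value filtering it was 0.0544, and the call held in 12 of 15 alternatives, over a range of 0.00124 to 0.0942. Against Aire+/+ livers the estimate was 2.68 with a limma adjusted p of 0.326.

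Orm2 read 14.0 and 11.4 RPKM in Aire+/+ livers, 4.78 and 14.4 RPKM in TG Aire-/- livers, and 30.9 and 2248 RPKM after depletion. The first 2 groups overlapped, and both depleted livers were above them. The log2 difference of depleted from TG Aire-/- livers was 4.83 ± 1.65 (SE, n = 2 and 2), with a limma adjusted p of 0.0529, just over the threshold. Over the alternatives that p ran from 0.00500, without depleted replicate 1, to 0.212, without TG Aire-/- replicate 1, and it was under the threshold in 7 of 15, among them the replicate block (0.0272). Orm1 was 8.49 to 11.7 times as high as Orm2 in 4 of the 6 libraries, 3.51 times in TG Aire-/- replicate 2 and 1.18 times in depleted replicate 2.

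Hp and Hpx were the most abundant of the 10 and gave no call in any of the 3 comparisons. Hp read 4182 and 3174 RPKM in Aire+/+ livers, 2545 and 1345 RPKM in TG Aire-/- livers, and 1611 and 6689 RPKM after depletion. Both TG Aire-/- livers were lower than both Aire+/+ livers, and the depleted livers held the 2nd lowest and the highest reading. The log2 difference of TG Aire-/- from Aire+/+ was -0.98 ± 0.73 (SE, n = 2 and 2, limma adjusted p of 0.310), and that of depleted from TG Aire-/- livers was 0.83 ± 0.73 (limma adjusted p of 0.388). Hpx read 3726 and 3159 RPKM, 5022 and 2985 RPKM, and 3134 and 8623 RPKM in the same order. All 3 groups of Hpx overlapped, and the log2 differences were 0.17 ± 0.63 and 0.42 ± 0.63 (SE, n = 2 and 2, limma adjusted p of 0.842 and 0.609). The ratio of Hp to Hpx was 1.12 and 1.0 in Aire+/+ livers and 0.451 to 0.776 in the 4 TG livers.

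Apcs and Itih4 were lower in every TG liver than in every Aire+/+ liver. Apcs read 485.6 and 424.6 RPKM in Aire+/+ livers, 210.7 and 188.2 RPKM in TG Aire-/- livers, and 262.0 and 340.5 RPKM after depletion. The depleted livers lay between the other groups without overlap. Apcs fell by 1.19 ± 0.32 on the log2 scale in TG Aire-/- against Aire+/+ livers (SE, n = 2 and 2, limma adjusted p of 0.0263). The call was lost without either Aire+/+ library (limma adjusted p of 0.219 and 0.158) and without TG Aire-/- replicate 2 (0.0996). The log2 difference of depleted from TG Aire-/- livers was 0.58 (limma adjusted p of 0.186), and it passed the threshold with libraries centred on their median (0.0452, the lowest of 15 alternatives, whose highest was 0.385).

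Itih4 read 831.7 and 861.4 RPKM in Aire+/+ livers, 184.9 and 243.8 RPKM in TG Aire-/- livers, and 563.7 and 370.0 RPKM after depletion. The depleted livers again lay between the other groups, and here replicate 1 was the higher. Itih4 fell by 1.99 ± 0.37 on the log2 scale in TG Aire-/- against Aire+/+ livers (SE, n = 2 and 2, limma adjusted p of 0.00708), a call lost only without an Aire+/+ library (0.0623 and 0.0645). It rose by 1.10 ± 0.37 on the log2 scale from TG Aire-/- to depleted livers (SE, n = 2 and 2, limma adjusted p of 0.0495). That call sat at the threshold: it held in 5 of 15 alternatives, with a range of the limma adjusted p from 0.0241 to 0.138. With the replicate block it was lost (limma adjusted p of 0.0669).

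Wfdc21 had the closest replicates after depletion and changed in all 3 comparisons. It read 84.5 and 79.0 RPKM in Aire+/+ livers, 6.35 and 6.99 RPKM in TG Aire-/- livers, and 949.0 and 971.4 RPKM in depleted livers. No groups overlapped, and replicates of a group differed far less than groups did. Wfdc21 fell by 3.43 ± 0.26 on the log2 scale in TG Aire-/- against Aire+/+ livers (SE, n = 2 and 2, limma adjusted p of 0.00142). It rose by 6.97 ± 0.26 from TG Aire-/- to depleted livers (limma adjusted p of 7.35e-05) and by 3.54 ± 0.26 from Aire+/+ to depleted livers (limma adjusted p of 0.00315), both on the log2 scale with SE and n = 2 and 2. All 3 calls held in each of the 15 alternatives, with leave-one-out ranges of -3.49 to -3.37, 6.91 to 7.03 and 3.49 to 3.59.

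**Figure D2:**
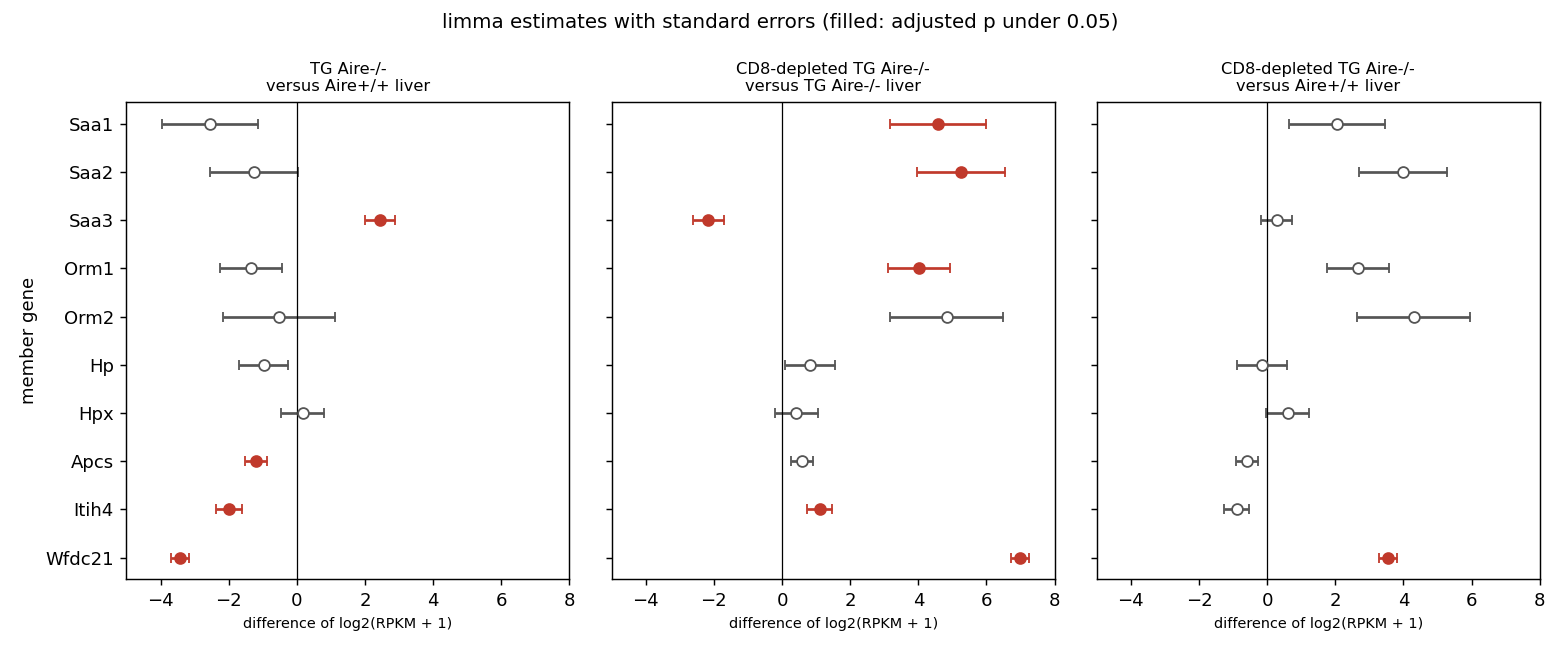
Differences of log2(RPKM + 1) for the 10 genes in the 3 liver comparisons, as limma estimates with bars of 1 SE, filled red where the adjusted p was under 0.05. The bars of Saa1, Saa2, Orm1 and Orm2 are wider (SE of 0.91 to 1.65) than those of Wfdc21 (0.26), Apcs (0.32) and Itih4 (0.37).

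Among the 10 genes the gap between the depleted replicates was largest in the orosomucoid and hepatic serum amyloid A genes. Of the 10 genes, 9 were higher in replicate 2 and 7 were at least 1 log2 unit higher, where 8.44% of all genes tested were at least 1 higher and 2.03% at least 1 lower. Orm2 was 72.7-fold higher in replicate 2, Saa1 42.5-fold, Saa2 30.8-fold and Orm1 10.1-fold. Ranked by the size of that difference among 12231 genes, Orm2 was number 3, Saa1 number 6, Saa2 number 9 and Orm1 number 35. Hp was 4.15-fold, Saa3 3.21-fold and Hpx 2.75-fold higher. Apcs (1.30-fold), Wfdc21 (1.02-fold) and Itih4 (0.656-fold) were apart from this pattern. Between the Aire+/+ replicates 0 of the 10 were 1 log2 unit apart, where 0.147% of all genes were at least 1 higher in replicate 2 and 0.343% at least 1 lower. Between the TG Aire-/- replicates 1 of the 10, Orm2, was at least 1 higher, where 6.88% of all genes were at least 1 higher and 3.55% at least 1 lower.

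**Figure D3:**
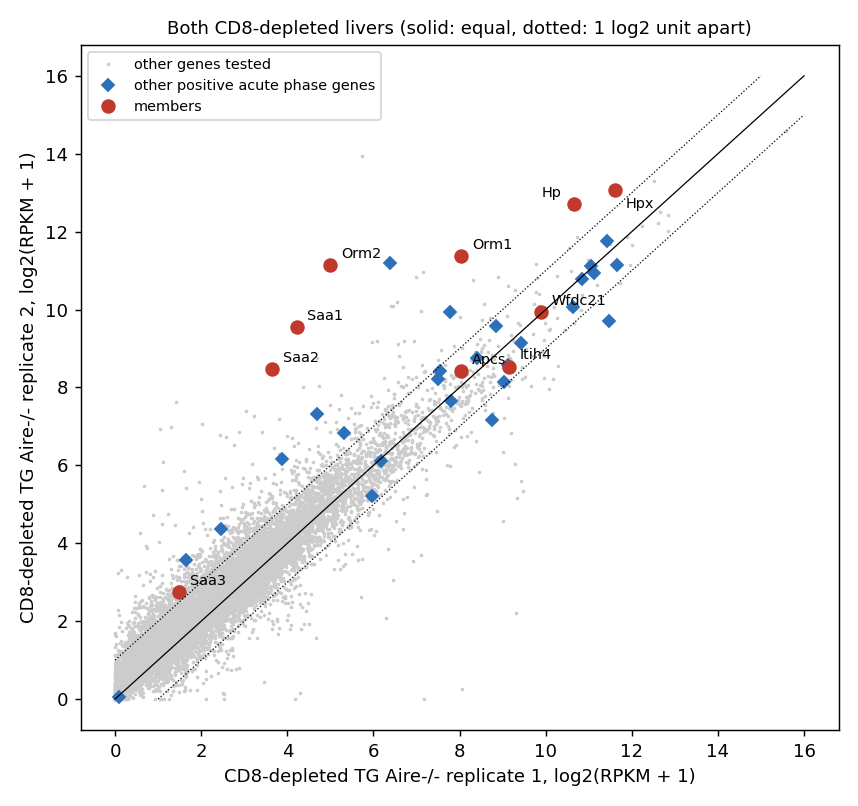
log2(RPKM + 1) of 12231 genes in depleted replicate 2 against depleted replicate 1, with the 10 genes in red, other positive acute phase genes as blue diamonds, and lines at equality (solid) and 1 log2 unit apart (dotted). Orm2, Saa1, Saa2 and Orm1 lie far above the upper dotted line, and Wfdc21, Apcs and Itih4 lie between the dotted lines.

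Some other genes with a hepatic acute phase role were also higher in the same library, and others were not. Lcn2, which encodes the siderophore-binding protein lipocalin-2, read 82.8 RPKM in depleted replicate 1 and 2346 RPKM in replicate 2, a 28.3-fold gap. Orm3 (13.6 and 70.7 RPKM), Steap4 (25.0 and 157.6 RPKM), Lrg1 (217 and 976 RPKM) and Saa4 (39.1 and 112.6 RPKM) were also higher in replicate 2. Hamp, which encodes the iron hormone hepcidin, went the other way, at 2815 and 834 RPKM. The fibrinogen chain genes Fga (1587 and 1079 RPKM) and Fgb (3210 and 2277 RPKM) were lower in replicate 2 as well. The choice of these genes was made with their values known. Of the 27 other positive acute phase genes, 14 were higher in replicate 2. Their median difference was 0.057 on the log2 scale, and that of all genes tested was 0.198. Of the 27, 8 were at least 1 log2 unit higher in replicate 2 and 2 lower, against 8.44% and 2.03% of all genes.

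Between groups, 9 of those 27 genes were called in TG Aire-/- against Aire+/+ livers, 3 that rose and 6 that fell (limma). Of all genes tested 37.3% were called, 31.8% higher and 5.5% lower. The median log2 difference of the 27 was -0.82, and that of all genes was 0.53. Cd14, the coreceptor for bacterial lipopolysaccharide, rose by 4.33 on the log2 scale, and A2m, a broad protease inhibitor, by 3.03 (limma adjusted p of 0.00467 and 0.00247). A2m reached 1 RPKM only in the TG Aire-/- livers, so the filter favoured its rise there and its fall after depletion. Saa4, the constitutive serum amyloid A, fell by 4.36 on the log2 scale (limma adjusted p of 0.00207), from 190.6 and 205.2 RPKM to 11.1 and 6.77 RPKM. Crp, a pentraxin like Apcs, read 262 and 267 RPKM in Aire+/+ livers, 141 and 117 RPKM in TG Aire-/- livers, and 181 and 296 RPKM after depletion, and was not called in any comparison. From TG Aire-/- to depleted livers 8 of the 27 rose and 3 fell (limma), with a median log2 difference of 0.61. Of all genes tested 4.49% were called higher and 33.5% lower, with a median of -0.58. Against Aire+/+ livers the depleted livers differed in 1 of the 27, Hamp, which rose (limma adjusted p of 0.000783), where 0.548% of all genes were called. Hamp read 0 and 0.122 RPKM in Aire+/+ livers and 1.39 and 3.02 RPKM in TG Aire-/- livers, and its reads can be shared with the near-identical Hamp2. The count of 9 depended on the setting: it was 17 with only the groups compared, 16 with libraries centred on their median, and 2 without TG Aire-/- replicate 2.

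**Figure D4:**
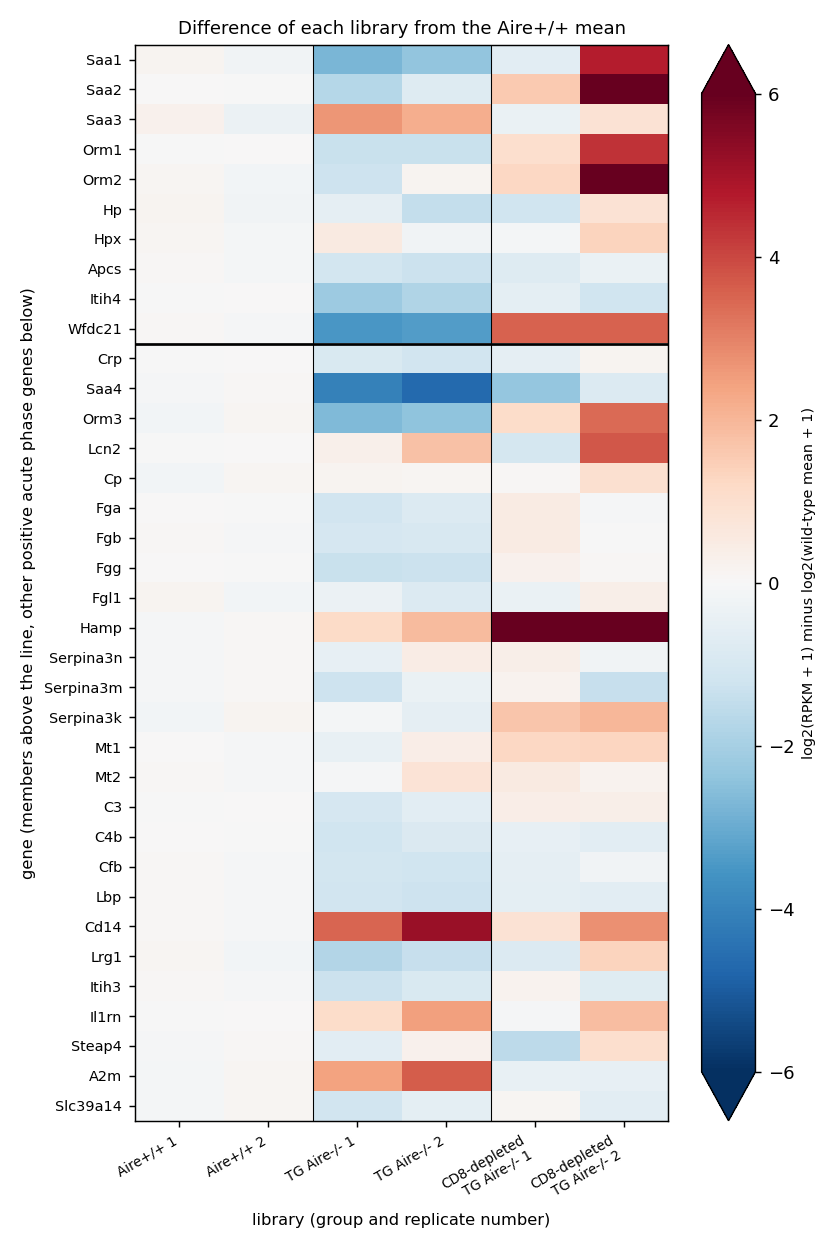
Difference of each library from the mean of the Aire+/+ libraries on the log2(RPKM + 1) scale (red higher, blue lower, colours saturate at 6), for the 10 genes above the line and other positive acute phase genes below it. The TG Aire-/- columns are blue for most of the genes and red for Saa3, Cd14 and A2m, and depleted replicate 2 is red for Saa1, Saa2, Orm1, Orm2, Orm3 and Lcn2.

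Negative acute phase genes, whose products are known to fall in plasma during the response, had lower estimates in TG Aire-/- livers in 14 of 16 genes. Of the 16, 7 fell and 1 rose against Aire+/+ livers (limma), with a median log2 difference of -1.0. Of all genes tested 5.5% were called lower and 31.8% higher, with a median of 0.53. Serpina6, which encodes corticosteroid-binding globulin, fell by 6.81 on the log2 scale, Igfals, a carrier subunit for insulin-like growth factors, by 3.30 and Itih1, a heavy chain related to Itih4, by 2.54 (limma adjusted p of 0.00148, 0.00198 and 0.00405). Apoa4, an apolipoprotein, rose by 4.23 (limma adjusted p of 0.00178). Alb, serum albumin, was not called: it read 35830 and 39474 RPKM, then 24388 and 18964 RPKM, then 49396 and 24359 RPKM after depletion. From TG Aire-/- to depleted livers 6 of the 16 rose and 2 fell (limma), where 4.49% of all genes were called higher and 33.5% lower.

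Among the ligands of the response, Il6 was barely detected and Il1b rose in TG Aire-/- livers. Il6 was at most 0.212 RPKM in all 6 libraries and was too low to be tested. Tnf was 1.63 and 0.938 RPKM in TG Aire-/- livers and at most 0.264 RPKM in the other 4, and was not tested. Of 14 ligands 6 were tested, and Il1b, Il10, Il1a and Clcf1 rose in TG Aire-/- against Aire+/+ livers (limma). Of all genes tested 31.8% were called higher and 5.5% lower. Il10 read 1.52 and 2.69 RPKM in TG Aire-/- livers and at most 0.349 RPKM in the other libraries. It was tested only because it was high there, so the filter favoured its rise there and its fall after depletion. Clcf1 reached 1 RPKM elsewhere only in depleted replicate 2 (1.13 RPKM), so the filter favoured its rise and fall as well. Il1b, which encodes interleukin-1 beta, read 2.17 and 0.994 RPKM in Aire+/+ livers, 8.31 and 34.8 RPKM in TG Aire-/- livers, and 4.02 and 6.92 RPKM after depletion, a rise of 2.86 on the log2 scale in TG Aire-/- (limma adjusted p of 0.0110). The call for Il1b was lost without Aire+/+ replicate 2 (limma adjusted p of 0.0523, the highest of 15 alternatives, whose lowest was 0.00667). The call for Il1a, which encodes interleukin-1 alpha, was less stable and held in 9 of 15 alternatives, with a limma adjusted p of 0.0224 to 0.222. It was lost without low-value filtering (0.103), with median centring (0.160) or rescaling (0.0596), and without TG Aire-/- replicate 2 (0.222) or either Aire+/+ library (0.125 and 0.154). After depletion Il10 and Clcf1 fell (limma), by 1.26 and 1.0 on the log2 scale, but neither call held with libraries centred on their median. There the differences were -0.58 and -0.32 (limma adjusted p of 0.0814 and 0.280, over ranges of 0.00692 to 0.0814 and 0.0116 to 0.280), and that of Clcf1 was also lost without either TG Aire-/- library (0.0583 and 0.0754) and without depleted replicate 1 (0.0667). The TG Aire-/- livers thus held the highest readings of Il1b and the lowest readings of Saa1.

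Of 12 receptors 5 rose and 2 fell in TG Aire-/- against Aire+/+ livers (limma), where 31.8% of all genes tested were called higher and 5.5% lower. Among the receptors were Il6st, the shared gp130 chain, up by 1.87 on the log2 scale and Osmr, the oncostatin M receptor chain, by 1.91 (limma adjusted p of 0.00603 and 0.0174). Outside the TG Aire-/- livers Osmr reached 1 RPKM only in depleted replicate 2 (2.99 RPKM), so the filter favoured its rise. The call for Osmr was lost without low-value filtering (limma adjusted p of 0.0605), without either Aire+/+ library (0.0716 and 0.0636) and without TG Aire-/- replicate 2 (0.115), over a range of 0.00632 to 0.115. Il6ra, the interleukin-6 binding chain, was not called, and its lowest reading, 3.82 RPKM, was in depleted replicate 2, where depleted replicate 1 had the highest, 20.5 RPKM. Of 22 signalling and transcription factor genes 11 rose and 2 fell (limma). Socs3, a feedback inhibitor induced by STAT3, read 1.80 and 1.17 RPKM, then 6.71 and 15.5 RPKM, then 2.43 and 3.06 RPKM, and Cebpd, a C/EBP factor, 7.37 and 6.52 RPKM, then 28.7 and 44.1 RPKM, then 6.58 and 8.18 RPKM. They rose by 2.19 and 2.20 on the log2 scale in TG Aire-/- livers (limma adjusted p of 0.00593 and 0.00279). In depleted replicate 2 Socs3 was 1.26-fold and Cebpd 1.24-fold its reading in replicate 1. Of the 22 genes 18 were higher in that replicate, as were 8206 of all 12231 genes tested. At least 1 log2 unit higher were 4 of the 22, where 8.44% of all genes were. Those 4 were Relb (4.91-fold), Nfkb2 (4.83-fold), Rela (2.18-fold) and Nfkbia (2.09-fold). Socs1, another feedback inhibitor of cytokine signalling, rose by 3.24 on the log2 scale (limma adjusted p of 0.00571). Outside the TG Aire-/- livers Socs1 reached 1 RPKM only in depleted replicate 2 (1.85 RPKM). It passed the filter through the group where it was high, which favoured its rise there and its fall after depletion. Stat3 read 22.5 and 25.1 RPKM, 29.4 and 47.7 RPKM, and 25.4 and 22.4 RPKM and was not called. Cebpb, which read 161 and 198 RPKM in Aire+/+ and 167 and 203 RPKM in TG Aire-/- livers, read 70.0 and 113 RPKM after depletion, below both earlier groups. That difference from TG Aire-/- livers was -1.04 on the log2 scale (limma adjusted p of 0.0471), at the threshold, and the call was lost in 10 of 15 alternatives. Over them the limma adjusted p ran from 0.0206 to 0.457, the highest with libraries centred on their median, where the difference was -0.36. From TG Aire-/- to depleted livers 10 of the 22 fell (limma), where 33.5% of all genes tested were called lower. The count of 10 was 2 without low-value filtering, 4 with libraries centred on their median and 2 with sex as a covariate.

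Genes of the receptors and clearance of acute phase proteins rose with the immune cell genes. Of 14 tested (16 listed), 11 rose in TG Aire-/- against Aire+/+ livers, and 9 fell after depletion (limma). Of all genes tested 31.8% were called higher in the first of these comparisons and 33.5% lower in the second. Fcgr4 and Fcgr3, Fc receptors of a class that binds pentraxins as well as antibodies, rose by 4.15 and 3.80 on the log2 scale, and Hmox1, the haem-degrading enzyme downstream of haem uptake, by 3.83 (limma adjusted p of 0.00217, 0.00227 and 0.00251). Cd36, a scavenger receptor, rose by 3.53 (limma adjusted p of 0.00300). Cd163, the haptoglobin-haemoglobin receptor of macrophages, read 1.32 and 1.45 RPKM, then 5.00 and 6.78 RPKM, then 1.98 and 3.66 RPKM, a rise of 1.52 on the log2 scale in TG Aire-/- livers (limma adjusted p of 0.00835). That call was lost without either Aire+/+ library (limma adjusted p of 0.0680 and 0.0562) and without TG Aire-/- replicate 2 (0.0596), over a range of 0.00607 to 0.0680. Lrp1, which takes up haem bound to hemopexin, read 44.1 and 41.7 RPKM, 22.7 and 37.7 RPKM, and 27.5 and 27.2 RPKM and was not called.

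Most lists of cell type markers differed between Aire+/+ and TG Aire-/- livers, but the B cell list did not shift in 1 direction. Of all genes tested 31.8% were called higher and 5.5% lower in that comparison, and 4.49% higher and 33.5% lower after depletion. Of 15 hepatocyte genes 4 fell in TG Aire-/- against Aire+/+ livers (limma), and the log2 difference was negative for all 15. The summed RPKM of the 15 was 63472 to 63677 in Aire+/+ livers, 26266 and 41220 in TG Aire-/- livers, and 71674 and 41138 in depleted replicates 1 and 2. Alb made up the larger part of each sum, with 49396 and 24359 RPKM in depleted replicates 1 and 2. Alb, Ttr and Apoa1 are also on the list of negative acute phase genes, so the sum is not a separate measure of hepatocyte content. Of 10 macrophage markers 9 rose, with sums of 178 to 182 RPKM in Aire+/+ and 1052 to 1117 RPKM in TG Aire-/- livers. Of 10 neutrophil markers tested 9 rose, with sums of 38.1 to 56.0 RPKM and 459 to 639 RPKM. The macrophage sum was 171 RPKM in depleted replicate 1 and 578 RPKM in replicate 2, and the neutrophil sum 92.3 and 369 RPKM. Of 9 T cell markers tested 9 rose, from sums of 2.41 to 2.74 RPKM to 34.7 to 58.3 RPKM, and all 9 fell after depletion. Of these, Cd8a, Cd8b1, Cd2 and Cd5 reached 1 RPKM only in the TG Aire-/- livers, so the filter favoured both calls of these genes. Cd4 reached it elsewhere only in depleted replicate 2 (1.46 RPKM), so the filter favoured its calls too. Of 2 B cell markers tested 0 were called in any comparison. The B cell list summed to 4.67 and 5.77 RPKM in Aire+/+ livers, 13.4 and 2.43 RPKM in TG Aire-/- livers, and 1.74 and 4.34 RPKM after depletion. Endothelial markers summed to 31.5 to 40.2 RPKM in Aire+/+ livers, 166 to 280 RPKM in TG Aire-/- livers and 24.5 to 32.2 RPKM after depletion, and 5 of 6 rose in TG Aire-/- livers. Stellate and fibroblast markers summed to 130 to 168 RPKM, 290 to 474 RPKM and 73.4 to 85.1 RPKM, and 2 of 6 rose. Mesothelial markers summed to 2.01 to 2.12 RPKM, 15.1 to 15.5 RPKM and 0.138 to 0.277 RPKM, and both of the 2 tested rose. Cholangiocyte markers, of which 2 of 5 tested rose, summed to 24.6 to 37.0 RPKM in Aire+/+ and 51.3 to 99.0 RPKM in TG Aire-/- livers, and the depleted replicates held 19.6 and 100.5 RPKM. The sums of these 4 lists were thus higher in both TG Aire-/- livers than in both Aire+/+ livers. Among their tested genes, Msln (mesothelial) and Krt7 (cholangiocyte) reached 1 RPKM only in the TG Aire-/- livers, so they were tested only because they were high there. Upk3b (mesothelial) reached it elsewhere only in Aire+/+ replicate 1 (1.03 RPKM), so it too passed through the TG Aire-/- livers. Saa3 was high where the macrophage and neutrophil sums were high, and its level in depleted replicate 2 was above that in replicate 1. Of the adipocyte markers, Adipoq and Lep, which define that cell type, were listed at 0 in all 6 libraries, while Fabp4, also made by macrophages and endothelium, rose by 5.57 on the log2 scale (limma adjusted p of 0.00178). Erythroid markers summed to 1452 to 1738 RPKM, 12501 to 21058 RPKM and 341 to 754 RPKM in the 3 groups. The part of cell composition in the results for the 10 genes was not tested.

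**Figure D5:**
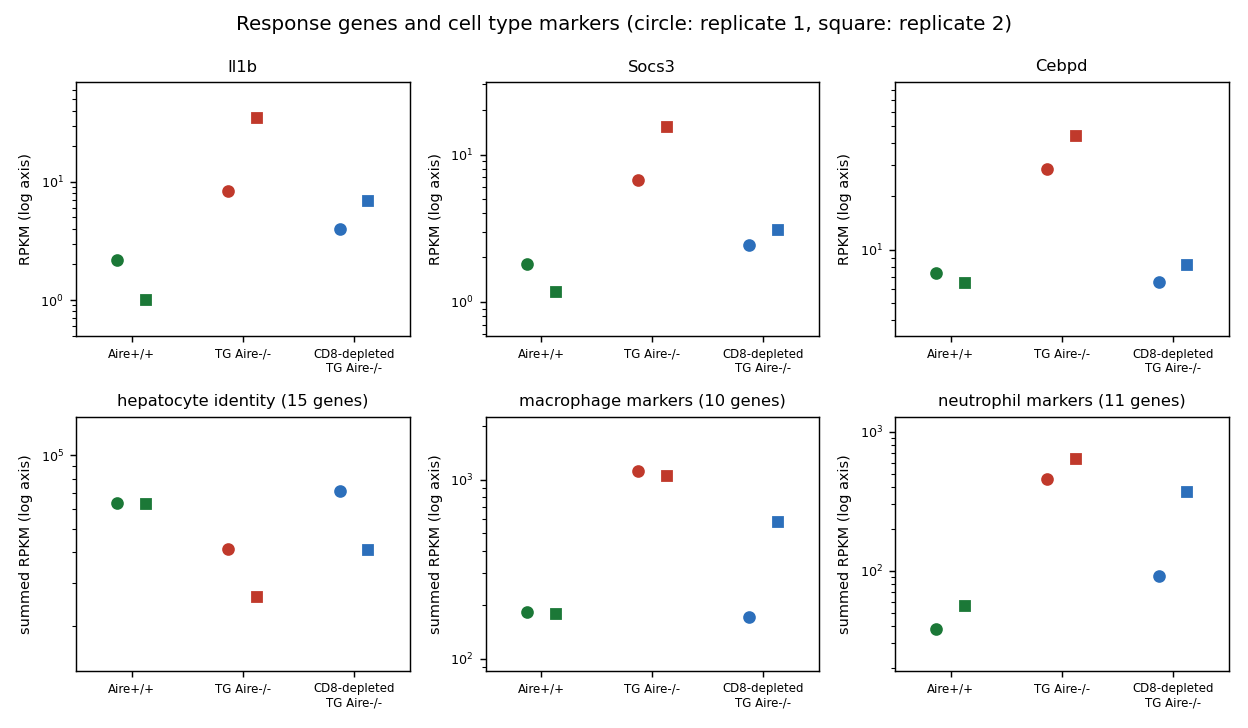
RPKM of Il1b, Socs3 and Cebpd (top) and summed RPKM of hepatocyte, macrophage and neutrophil markers (bottom) in the 6 liver libraries, on log axes scaled for each panel, with a circle for replicate 1 and a square for replicate 2. Il1b, Socs3 and Cebpd are highest in TG Aire-/- livers, and the macrophage and neutrophil sums of depleted replicate 2 (578 and 369 RPKM) lie above those of replicate 1.

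The genes whose profile over the 6 libraries was nearest to the mean of the 10 were Fdps, Cyp51, Msmo1, Ugt2b37 and Gstm1, by Euclidean distance between centred log2(RPKM + 1) values. Fdps, the nearest at a distance of 0.469, encodes farnesyl diphosphate synthase and read 13.5 and 16.8 RPKM, 5.11 and 6.33 RPKM, and 16.9 and 89.8 RPKM. Cyp51 (distance 0.483) and Msmo1 (0.678), which like Fdps encode enzymes of cholesterol synthesis, read 49.1 and 136.2 RPKM in depleted replicate 2. In depleted replicate 1 they read 8.93 and 28.2 RPKM. Gstm1, a glutathione transferase (0.875), read 1549 RPKM and Ugt2b37 (0.759) 15.4 RPKM in depleted replicate 2. The likeness is over 6 libraries of 3 groups, and all 5 genes had their highest reading in depleted replicate 2. The centred mean of the 10 was 2.62 there and 0.195 in depleted replicate 1. Saa3, Apcs and Itih4 had their highest readings in other groups, and Wfdc21 was level between the depleted replicates. The likeness is therefore to the mean, not to each of the 10 genes.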

How the data were processed

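RPKM tables of liver, thymus and CD8+ T cells were deposited by the authors. Per the submitters' processing notes, STAR 2.5.2b and the mm10 build were used. The annotation and counting tool behind the values were not given in the sources used here. Library preparation followed Illumina or BGI protocols per the labels, without saying which library had which. Values were used for 18 of 22 samples. The 4 livers titled without a batch were not analysed here. Groups and replicate numbers come from the titles.

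Liver was tested in R 4.3.3 with limma 3.58.1 (lmFit and eBayes with trend, two-sided tests) on log2(RPKM + 1), with all 3 groups in 1 fit and no covariate. The filter asked for 1 RPKM or more in 2 or more of the 6 libraries. Genes that were high in the TG Aire-/- livers alone, or nearly so, entered the test through them. The filter favoured such calls, also in the counts of lists. This left 12231 genes, all 10 acute phase genes among them, and p-values were adjusted over these by the Benjamini-Hochberg method with 0.05 as the threshold. Because of the pseudocount of 1, changes of low genes are understated. Unscaled values moved the median gene by 0.53, -0.58 and -0.04 on the log2 scale in the 3 comparisons, in the order of the report. The acute phase genes and gene lists were chosen with earlier results of these data known. Named from each related list were up to 4 genes with the largest called difference of TG Aire-/- from Aire+/+ livers without overlap, plus fixed anchors: Il6, Il1b, Tnf, Il6ra, Il6st, Osmr, Stat3, Socs3, Cebpb, Cebpd, Crp, Alb, Hnf4a, Cd163 and Lrp1. Not every gene the rule names is reported here. Genes outside this rule were named after their values were seen.

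Depth was inferred from the steps between low RPKM values. In liver 40.3% to 46.8% of low values were whole reads within 0.1 read, where chance gives 20%, too few to recover reads for a count test. Floors at 3 reads cover counting error only. Replicates correlated at Pearson's r of 0.933 to 0.989 across genes and shared 0 identical values. Deviations of same-numbered libraries correlated at 0.292, -0.0925 and -0.145, so the numbers were not taken as pairs. Positions are from GENCODE on GRCm38, promoters from RefSeq GRCm38.p6, and alignments used Biopython 1.88. The script was tested on simulated data.

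Alternatives were a pseudocount of 0.1, no filter, centring on the library median, rescaling without the 20 most abundant genes, eBayes without trend, a fit of only the groups compared, the replicate block and leaving out each library. Sex as a covariate and crossed numbers were added after seeing the data.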

Additional observations from a re-analysis of the deposited data

Results flagged for a closer look

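Some of these genes gave signal in the thymus and CD8+ T cell libraries, which none of the comparisons used, in every library above the level of 3 reads. Saa3 reached 122.6 RPKM in thymus, in TG Aire-/- replicate 1, and read 1.77 to 28.1 RPKM in the other 8 thymus libraries. Hp reached 223.2 RPKM in the same library and read 0.923 to 3.71 RPKM in the other 8. Orm1 read 0.201 to 1.42 RPKM in thymus, highest in TG Aire+/- replicate 1. In the 3 CD8+ T cell libraries, each the only 1 of its genotype, Hp read 25.5 RPKM in Aire-/-, 0.305 RPKM in TG Aire+/- and 12.8 RPKM in TG Aire-/- cells. Orm2 read 1.02, 0.416 and 0.370 RPKM in the same order. No difference between these libraries was tested.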

How the results depend on the processing

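Of the 10 acute phase genes, 4, 6 and 1 were called in TG Aire-/- against Aire+/+, depleted against TG Aire-/- and depleted against Aire+/+ livers. With only the groups compared the first count was 7, and without low-value filtering the second was 2. Leaving out 1 library gave 2 to 7, 1 to 6 and 1 to 5. The lowest first count came without either Aire+/+ library, the lowest second count without either TG Aire-/- library, and the highest count in the last comparison, which added Saa1, Saa2, Orm1 and Orm2, without depleted replicate 1. The replicate block gave 4, 6 and 1, with Orm2 gained and Itih4 lost in the second. With the depleted numbers crossed, added after seeing the data, the counts were 4, 7 and 1, and with sex as a covariate 4, 4 and 1. In TG Aire-/- against Aire+/+ livers Hpx turned from 0.17 to -0.50 with median centring and to -0.022 when rescaled, with -0.20 to 0.55 on leaving out libraries, and Orm2 ran from -1.24 to 0.17. In depleted against TG Aire-/- livers Hp ran from -0.20 to 1.85 and Hpx from -0.30 to 1.15. In depleted against Aire+/+ livers Saa1 ran from -0.62 to 4.71, Saa3 from -0.36 to 0.91, Hp from -1.18 to 0.88 and Hpx from -0.13 to 1.33. None of these reversed estimates was called in the fit of the report. Over all 12231 genes the 4565, 4646 and 67 calls became 1270 to 5102, 1294 to 4723 and 13 to 141 on leaving out libraries. They became 3309, 2637 and 64 with median centring. The 67 became 17 without low-value filtering and with only the groups compared, and 16 with sex as a covariate, where the 4646 became 2945. The cause of these changes was not tested, beyond the libraries or genes each setting adds or leaves out. With 2 libraries a group, a p over the threshold does not show that levels were equal, and low readings such as Saa2 in TG Aire-/- livers rest on few reads.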
